A study of Mus musculus with 4 samples.

Results

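The 39 Hox cluster genes were followed in 4 RNA-sequencing libraries of dissected adult mouse cerebellum. They are all rows of the count table whose symbol is Hox, a cluster letter from a to d and a paralogue number, 39 of 24015 genes, and the rule that picks them uses the symbol alone. The libraries came from C57BL/6N mice of 140 to 150 days: 1 heterozygous male, 1 wild type male, 1 heterozygous female and 1 wild type female. The heterozygotes carried 1 altered copy of Arid1b, which encodes a subunit of the BAF chromatin remodelling complex, and the wild types were their littermates. How the allele was made, and whether a library was 1 animal or a pool, is not stated in the labels. The labels name no individual animals, so p-values measure only the spread between these 4 libraries. The Hox rows were used to ask how far toward the tail end of the hindbrain the RNA in each dissected piece reached.

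Hox genes encode homeodomain transcription factors and lie in 4 clusters, Hoxa on chromosome 6, Hoxb on 11, Hoxc on 15 and Hoxd on 2. Within a cluster, genes with low numbers are expressed from rostral limits in the hindbrain, and genes with higher numbers from limits ever further down the medulla and spinal cord. Cerebellum arises from the first rhombomere, in front of every Hox limit, so cerebellar neurons themselves are classically Hox-negative, whereas pons and medulla keep part of the embryonic code into adult life. Genes of the same number in different clusters are paralogues and form a paralogue group. In bulk tissue, fewer cells of a type and less RNA per cell cannot be told apart.

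Library totals lay between 15950899 and 20616219 counts, and Hox genes held between 0.00306% and 0.0110% of them. A gene with no count could still be present at 0.146 to 0.188 CPM (counts per 1000000 counts of the library), the level of 3 counts. Arid1b, the targeted gene, was at 52.9 CPM in the male and 55.8 CPM in the female of the heterozygotes, and at 69.9 and 71.0 CPM in those of the wild types. The heterozygotes were both lower, and the edgeR log2 difference of -0.37 ± 0.11 (SE) had an adjusted p of 0.243. Cerebellar granule cell and Purkinje cell markers were present in every library, with summed levels of at least 3075 and 5964 CPM. Each library stood apart in markers of other tissue. The wild type female was low in brainstem neuron genes, at 172 CPM against 369 to 453. The heterozygous male was high in skeletal muscle genes, at 243 CPM against 47.8 to 62.4. In choroid plexus genes it was at 2701 CPM against 1459 to 1552. The heterozygous female had the highest pituitary sum, at 31.5 CPM against 3.65 to 6.84. Most of that sum was Prl, at 19.4 CPM, and Gh, at 8.02 CPM. Of the 5 tested pituitary genes, 3 were highest in the wild type female. The wild type male had the highest sum of blood cell genes, at 32.8 CPM against 6.71 to 12.9. Alas2 alone was 29.2 CPM of it. Of the 9 blood cell genes in the count table, the 6 globin genes had no count in any library. The part of these differences in the Hox results was not tested.

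Of the 39 Hox genes, 18 reached 10 counts in at least 1 library, 11 reached 10 counts in all 4, 8 were counted but stayed under 10, and 13 had no count in any library. By library, 13 genes reached 10 counts in the heterozygous male, 11 in the wild type male, 14 in the heterozygous female and 18 in the wild type female. Each of the 18 was highest in the wild type female. Of the 15 genes with enough counts to be tested, 15 were highest there, against 29.7% of all 15117 tested genes. Among the 15, Hoxb6, Hoxb8 and Hoxd1 had enough counts only through the wild type female and another library. The wild type male was lowest for 13 of the 18 and the heterozygous male for 4, while Hoxb7 had no count in either male. Hox transcripts were thus most abundant in the wild type female, the library lowest in brainstem neuron genes.

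**Figure D1:**
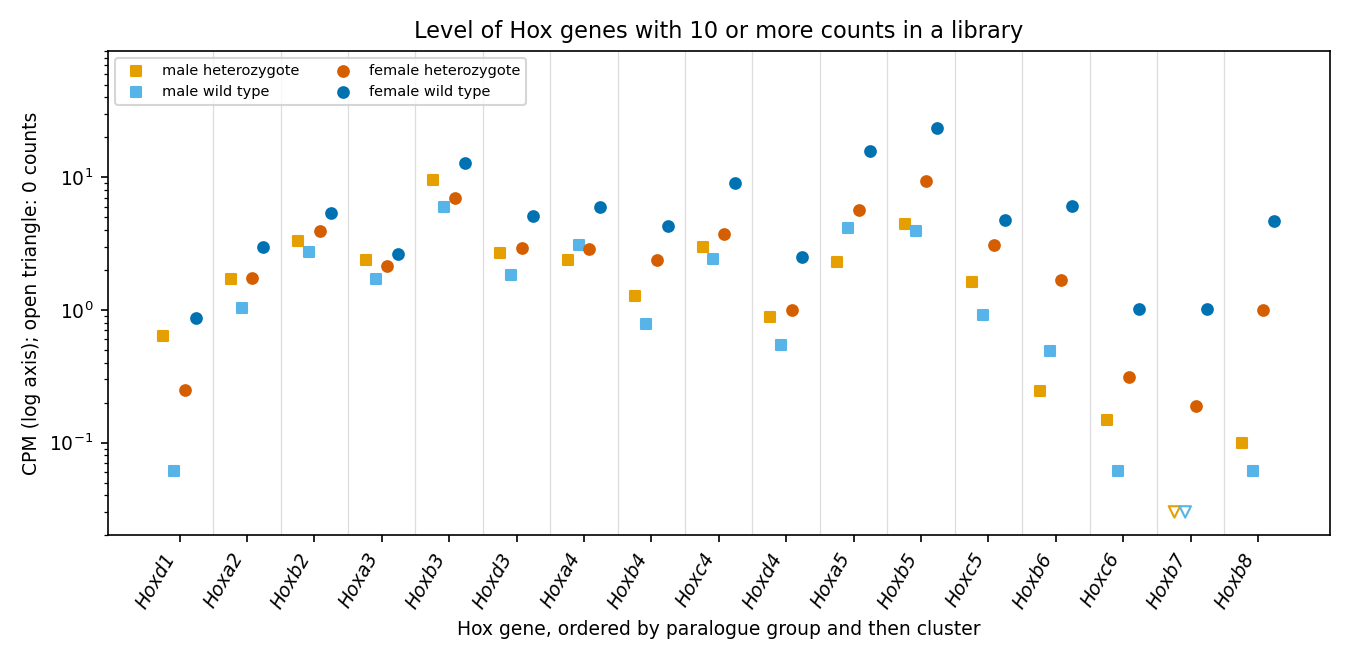
Level of 17 Hox genes with 10 or more counts in a library, as CPM on a log axis, with 1 point per library and genes ordered by paralogue group and then cluster. Every gene is highest in the wild type female, and the spread between libraries is widest from Hoxb6 to Hoxb8.

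Paralogue groups 2 and 3, summed, differed less between the libraries than each of groups 4 to 8. Hoxa2, the selector gene of the second branchial arch and the Hox gene with the most rostral hindbrain limit, was counted 35 times in the heterozygous male, 17 in the wild type male, 28 in the heterozygous female and 61 in the wild type female, or 1.73, 1.03, 1.76 and 2.96 CPM. Hoxb2, which acts in facial motor neuron development, was at 3.30, 2.73, 3.95 and 5.38 CPM in the same order. Both group 2 genes were higher in both females than in both males, and their genotypes overlapped. Hoxb3, which acts in the fifth and sixth rhombomeres, was at 9.46 CPM in the heterozygous male, 6.02 in the wild type male, 7.02 in the heterozygous female and 12.8 in the wild type female. Hoxa3, a gene of the third arch and thymus development, was at 2.37, 1.70, 2.13 and 2.62 CPM. Hoxd3, its Hoxd paralogue, was at 2.71, 1.82, 2.95 and 5.14 CPM. For Hoxa3 and Hoxb3 the heterozygous male lay above the heterozygous female, so that neither sexes nor genotypes separated, whereas Hoxd3 separated the sexes.

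Group 1 patterns the middle hindbrain in the embryo. Hoxd1, known from pain-sensing neurons, was counted 13 times in the heterozygous male, once in the wild type male, 4 times in the heterozygous female and 18 times in the wild type female. Hoxb1, the selector of the fourth rhombomere, had 1 count, in the wild type female. Hoxd1 was thus high in the heterozygous male and the wild type female.

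Groups 4 and 5 mark the caudal medulla and upper cervical cord, and hold 7 genes, all of which reached 10 counts in a library. Hoxa5, needed with Hoxc5 for phrenic motor neurons, was counted 47 times in the heterozygous male, 68 in the wild type male, 90 in the heterozygous female and 328 in the wild type female, or 2.32, 4.13, 5.64 and 15.9 CPM. Hoxb5, a gene of hindbrain and enteric neural crest development, was at 4.44, 3.95, 9.34 and 23.6 CPM. The wild type female held the highest value of both, the heterozygous female came next, and both males were below. Hoxc5 was at 1.63, 0.912, 3.07 and 4.75 CPM and also separated the sexes.

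In group 4, Hoxa4 was at 2.37 CPM in the heterozygous male, 3.10 in the wild type male, 2.88 in the heterozygous female and 5.97 in the wild type female. Both heterozygotes were below both wild types, and Hoxa4 was the only 1 of the 15 tested Hox genes whose genotypes did not overlap, against 22.6% of all tested genes that lay lower in this way. None of the 15 lay higher without overlap, against 22.1%. Hoxb4, known from blood stem cells as well as hindbrain, was at 1.28, 0.790, 2.38 and 4.27 CPM. Hoxc4 was at 3.01, 2.43, 3.76 and 9.07 CPM. Hoxd4, a target of retinoic acid in the hindbrain, was at 0.887, 0.547, 1.00 and 2.52 CPM. In these 3 paralogues both females were above both males and the heterozygous male was above the wild type male.

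Groups 6 to 8 mark lower cervical and thoracic levels, and here the libraries parted most. Hoxb6 was counted 5 times in the heterozygous male, 8 in the wild type male, 27 in the heterozygous female and 126 in the wild type female. Hoxb8, known from dorsal spinal cord neurons and from the excessive grooming of its mutants, was counted 2, 1, 16 and 97 times. Hoxb7 was counted 0, 0, 3 and 21 times. The Hoxb genes of these groups were thus counted mostly in the females, at 6.11 CPM for Hoxb6 and 4.71 CPM for Hoxb8 in the wild type female and at 1.69 and 1.00 CPM in the heterozygous female. Hoxc6, a gene of brachial motor neurons, was counted 3, 1, 5 and 21 times, with the wild type female highest. The other members stayed under 10 counts: Hoxa6 had at most 4, Hoxa7 at most 7 and Hoxd8 at most 3, and Hoxc8, a brachial motor neuron gene, had none.

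The posterior groups 9 to 13, which pattern lumbar and sacral cord, limbs and the urogenital tract, had almost no counts. Of their 16 genes none reached 10 counts in a library. Hoxd13, a gene of digit formation, was counted 2 times in the heterozygous male, 6 in the wild type male, 6 in the heterozygous female and once in the wild type female. Hoxb13 was counted 3 times and Hoxb9 2 times, both in the wild type female, and Hoxd9 2 times in the heterozygous female. Groups 10, 11 and 12 had 0 counts in all 4 libraries, which allows each of their genes up to 0.188 CPM in the shallowest library. The order of the libraries in the groups below 9 was not repeated in these few counts.

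Levels of different genes can be compared per transcript length. As CPM per kilobase of the longest annotated protein-coding transcript, averaged over the 4 libraries, Hoxb5 was highest at 5.46, followed by Hoxa5 at 3.73, Hoxb3 at 2.76, Hoxb2 at 2.36, Hoxa4 at 2.25 and Hoxc4 at 2.15. The order differed by library: Hoxb3 led in the heterozygous male at 2.97 CPM per kilobase, ahead of Hoxb5 at 2.34, whereas Hoxb5 led in the wild type female at 12.5, ahead of Hoxa5 at 8.48. In the wild type male Hoxa5 led at 2.20 CPM per kilobase, with Hoxb5 at 2.08, from 68 and 65 counts.

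Sequence upstream of 3 members is shown because they stand for the 3 patterns in the levels: Hoxa2 for groups 2 and 3, Hoxa5 for the graded groups 4 and 5, and Hoxb8 for the genes counted mostly in the females. Each run holds the 250 bases before the transcription start, from RefSeq on GRCm38.p6, 5′ to 3′ on the gene's own strand. The count table was made on another build, mm9, so these coordinates do not refer to it. Capitals mark matches, on either strand, to TGATTNAT, a PBX-HOX binding motif, or to TTTATNG, a CDX binding motif. PBX proteins are partners of Hox proteins, and CDX proteins turn on posterior Hox genes in the embryo. Hoxa2 lies at chr6:52164832-52165081 on the minus strand, Hoxa5 at chr6:52204588-52204837 on the minus strand and Hoxb8 at chr11:96281655-96281904 on the plus strand.
Hoxa2: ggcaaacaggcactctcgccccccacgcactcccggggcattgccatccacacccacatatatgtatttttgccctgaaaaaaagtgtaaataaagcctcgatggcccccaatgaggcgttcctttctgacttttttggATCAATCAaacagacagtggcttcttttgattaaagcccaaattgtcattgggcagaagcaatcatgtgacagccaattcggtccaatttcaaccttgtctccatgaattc
Hoxa5: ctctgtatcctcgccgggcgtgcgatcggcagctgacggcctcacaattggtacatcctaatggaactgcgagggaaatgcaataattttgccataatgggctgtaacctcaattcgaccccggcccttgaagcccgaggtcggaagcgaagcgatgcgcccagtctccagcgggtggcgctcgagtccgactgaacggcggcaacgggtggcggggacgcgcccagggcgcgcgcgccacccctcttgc
Hoxb8: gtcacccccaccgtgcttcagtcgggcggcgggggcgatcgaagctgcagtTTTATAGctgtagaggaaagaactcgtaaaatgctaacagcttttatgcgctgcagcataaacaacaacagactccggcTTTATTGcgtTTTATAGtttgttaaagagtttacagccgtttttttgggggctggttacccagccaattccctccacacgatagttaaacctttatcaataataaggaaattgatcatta
Hoxa2 held 1 match to the PBX-HOX motif, which 2.82% of 32851 promoter windows of the table hold, and 6 CpG pairs. Hoxa5 held no match to either motif and 28 CpG pairs, against a median of 6 over all windows. Hoxb8 held 3 matches to the CDX motif, which 9.81% of windows hold, and 12 CpG pairs. The 3 CDX genes that were listed, Cdx1, Cdx2 and Cdx4, had 0 counts in all 4 libraries. A match describes letters only, and the motifs were picked after the levels were known.

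Summed by paralogue group, the excess of the wild type female over the heterozygous female was larger at each higher group number from group 2 to group 7. Group 1 and groups 8 to 13 did not follow this order. All Hox counts together came to 37.0 CPM in the heterozygous male (exact Poisson 95% interval 34.4 to 39.8), 30.6 in the wild type male (28.0 to 33.4), 50.4 in the heterozygous female (47.0 to 54.0) and 110 in the wild type female (106 to 115). These intervals, like all intervals here, cover counting error only. The wild type female exceeded the heterozygous female 1.46-fold in group 2 (1.13 to 1.91), 1.70-fold in group 3 (1.43 to 2.02), 2.18-fold in group 4 (1.81 to 2.62) and 2.45-fold in group 5 (2.15 to 2.81). It exceeded it 3.54-fold in group 6 (2.42 to 5.33), 5.42-fold in group 7 (1.89 to 21.2) and 4.84-fold in group 8 (2.84 to 8.79). The intervals of groups 2 and 5 did not overlap each other, whereas neighbouring groups overlapped.

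**Figure D2:**
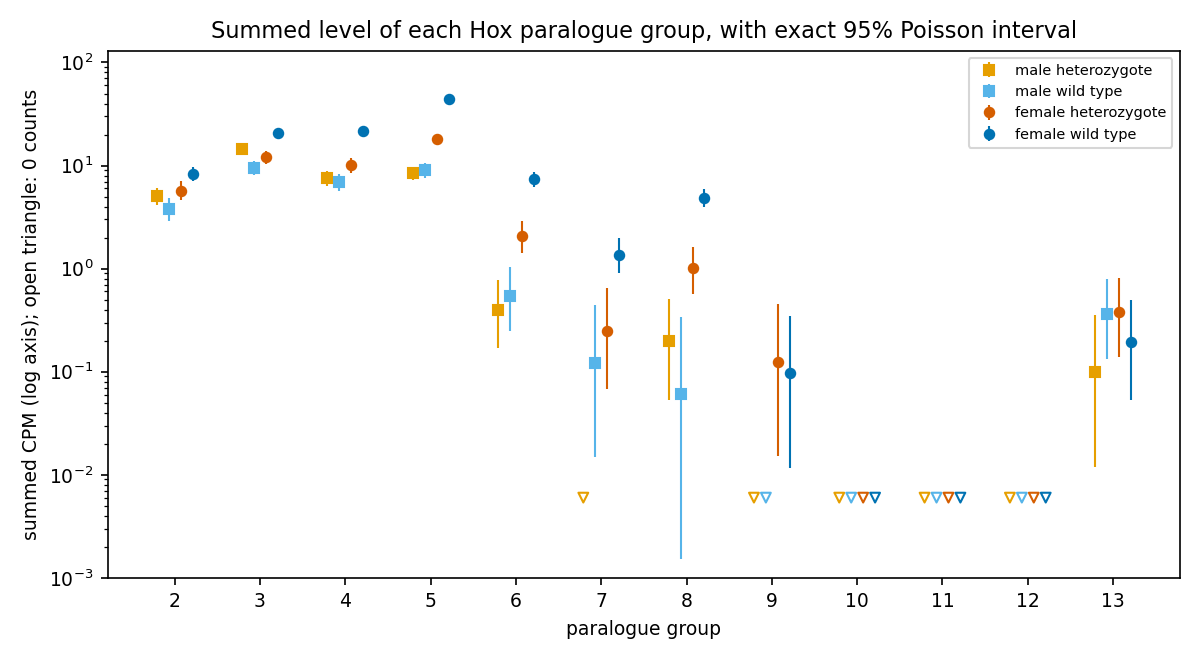
Summed level of each paralogue group in each library, as CPM on a log axis against paralogue group 2 to 13, with exact 95% Poisson intervals and open triangles where no count was found. From group 5 to group 8 the males go from over 8 CPM to under 0.2 CPM, while in group 8 the wild type female is at 4.85 CPM, and groups 10 to 12 have no counts.

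Set against the male of the same genotype, the wild type female was higher in each band up to group 8, and the heterozygous female in groups 4 to 8. Groups 1 to 3 together were 2.22-fold higher in the wild type female than in its male (1.90 to 2.59), groups 4 and 5 4.17-fold (3.65 to 4.78) and groups 6 to 8 18.6-fold (10.5 to 36.3). Between the heterozygotes, groups 1 to 3 stood at a female to male ratio of 0.906 (0.778 to 1.05), groups 4 and 5 at 1.76 (1.53 to 2.04) and groups 6 to 8 at 5.62 (2.96 to 11.5). In both genotypes the female to male ratio was therefore larger in each more posterior band up to group 8. Between the males, the heterozygote was 1.49-fold higher in groups 1 to 3 (1.27 to 1.76), while the ratio was 1.00 in groups 4 and 5 (0.850 to 1.19) and 0.811 in groups 6 to 8 (0.333 to 1.97).

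The makeup of the Hox signal, which does not depend on its total, was graded across the libraries. Groups 1 to 3 held 55.1% of Hox counts in the heterozygous male (Clopper-Pearson 95% interval 51.5 to 58.7), 44.6% in the wild type male (40.2 to 49.1), 36.7% in the heterozygous female (33.4 to 40.1) and 27.5% in the wild type female (25.7 to 29.4). Groups 6 to 8 held 1.60% (0.828 to 2.77), 2.38% (1.24 to 4.12), 6.59% (4.98 to 8.53) and 12.3% (11.0 to 13.7) in that order. No interval of groups 1 to 3 overlapped that of another library, and for groups 6 to 8 only the males overlapped each other. Groups 4 and 5 held 43.0%, 51.8%, 55.7% and 59.96%, and groups 9 to 13 between 0.264% and 1.19%. The heterozygote of each sex thus had the more anterior makeup in groups 1 to 3, and each female the more posterior makeup than either male. Without Hoxb5, the member with the most counts, groups 1 to 3 held 62.6%, 51.3%, 45.0% and 35.0%, in the same order of libraries.

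**Figure D3:**
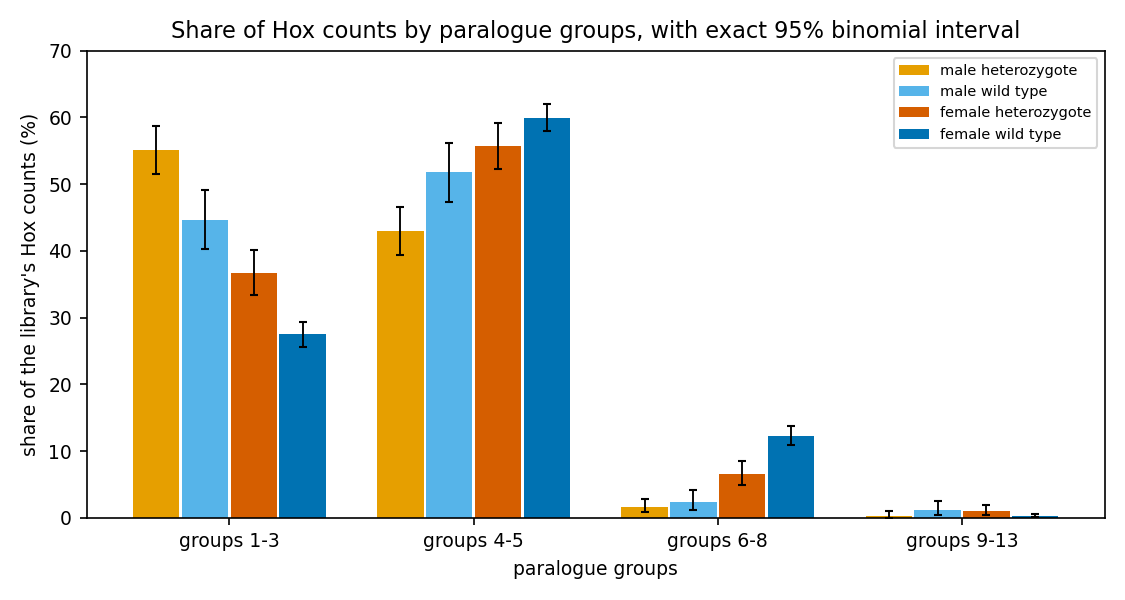
Share of each library's Hox counts in paralogue groups 1 to 3, 4 and 5, 6 to 8 and 9 to 13, in percent, with exact 95% binomial intervals. The share of groups 1 to 3 goes from 55.1% in the heterozygous male to 27.5% in the wild type female, and that of groups 6 to 8 from 1.60% to 12.3%.

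The caudal limit of a library was taken as the highest paralogue group with a gene at 10 or more counts. It was group 5 in both males and group 8 in both females, and scaling the counts to the depth of the smallest library left all 4 limits in place. Hoxb carried the limit of group 8, with Hoxb8 at 16 counts in the heterozygous female and 97 in the wild type female. Hoxa ended at group 5 in every library. Hoxc ended at group 5 except in the wild type female, where Hoxc6 took it to 6. Hoxd ended at group 4 except in the wild type male, where Hoxd4 had 9 counts and the limit was group 3. At 30 counts the limit was group 5 in the heterozygous female and 8 in the wild type female. At 3 counts it was group 6 in the heterozygous male and 13 in the other 3 libraries, through 6 counts of Hoxd13 in 2 of them and 3 of Hoxb13 in the wild type female.

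By cluster, Hoxb genes supplied between 45.8% and 52.7% of Hox counts and Hoxa genes between 24.2% and 33.9%. Hoxc genes supplied 11.1% to 14.2% and Hoxd genes 7.92% to 12.0%. The wild type male had the highest Hoxa share, at 33.9% (29.8 to 38.2), and the other 3 libraries lay between 24.2% and 25.9%. In each library Hoxb held the largest share and Hoxa the next.

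Genotype was tested with edgeR's quasi-likelihood test across 15117 genes, with sex as a term and p-values adjusted by Benjamini-Hochberg at 0.05. None of the 15 tested Hox genes was called, against 3 of all genes, or 0.0198%. At an unadjusted p under 0.05 there were 4 Hox genes, against 11.7% of all genes. DESeq2 called 0, but of the 15 it gave an adjusted p only to Hoxb3 and Hoxb5, 0.9999 for both. The others had none and could not be called by it. In the edgeR fit, 13 of the 15 were lower in heterozygotes and 2 higher. Their median log2 difference was -0.23, against 0.01 over all tested genes. The differences were -0.17 to 0.10 in groups 1 to 3, -1.20 to -0.04 in groups 4 and 5, and -1.88 and -1.62 in the 2 tested genes of groups 6 to 8. Those 2 genes, Hoxb8 and Hoxb6, passed the filter on low counts only through the females, so their differences rest mainly on the female pair. The 4 genes with an unadjusted p under 0.05 were Hoxa4, Hoxa5, Hoxb6 and Hoxb8.

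Hoxa5 was lower in the heterozygote of each sex. Its level was 3.98 ± 2.35 CPM in heterozygotes and 10.02 ± 8.33 CPM in wild types (SD, n = 2), and its log2 difference of -1.20 ± 0.26 (SE) had an edgeR adjusted p of 0.156. Hoxb6 differed by -1.62 ± 0.44 (adjusted p = 0.207), Hoxb8 by -1.88 ± 0.61 (adjusted p = 0.267) and Hoxa4 by -0.73 ± 0.31 (adjusted p = 0.397). Hoxb5, at 6.89 ± 3.47 CPM in heterozygotes and 13.8 ± 13.9 CPM in wild types, differed by -0.67 ± 0.36 (adjusted p = 0.539). These differences turned with the library left out, in fits with genotype as the only term. Without the wild type female, 13 of the 15 were higher in heterozygotes, with a median of 0.75, and Hoxa5 stood at -0.08, Hoxb5 at 0.78 and Hoxb6 at 0.91. Without the wild type male all 15 were lower, with a median of -1.19, and 11 of them were called. Without a low-count filter Hoxa5, Hoxb6 and Hoxb8 passed the threshold, with 553 genes called in all.

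The summed Hox level was 43.7 ± 9.47 CPM in heterozygotes and 70.4 ± 56.3 CPM in wild types (SD, n = 2), a log2 ratio of -0.69. Each heterozygote lay between the 2 wild types, so the genotypes overlapped, and 2 libraries against 2 cannot go below an exact two-sided p of 0.3333. Without the wild type female the ratio was 0.51.

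Within each sex there was 1 library per genotype, so the ratios have counting intervals and no replicate check. In the females all 18 detected genes were lower in the heterozygote, 15 of them with an interval below 0. Over the 15 tested genes the log2 ratio ran from -2.23 for Hoxb8 to -0.30 for Hoxa3, with a median of -1.05 against -0.01 over all tested genes. The heterozygous female was under 50% of the wild type for 8 of the 15, Hoxd1 among them, against 1.78% of all tested genes. In the males the ratio ran from -0.98 for Hoxb6 to 3.40 for Hoxd1, with a median of 0.57 against 0.00 over all genes. Hoxb3 and Hoxd1 had intervals above 0 there and Hoxa5 an interval below 0, at -0.84 (-1.40 to -0.28). Hoxd1 passed the filter on low counts only through the heterozygous male and the wild type female. That favours a high male and a low female ratio, so neither Hoxd1 ratio is support for a difference. None of the 15 was under 50% in the males, against 1.05% of all genes.

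The genotype ratio was lower at higher paralogue numbers in the females, and less clearly so in the males. Its median was -0.78 in groups 1 to 3, -1.27 in groups 4 and 5 and -2.04 in groups 6 to 8 in the females, and 0.61, 0.31 and -0.14 in the males. The last male value is the middle of 2 genes of opposite sign on few counts, Hoxb6 at -0.98 from 5 against 8 and Hoxb8 at 0.70 from 2 against 1. Hoxc5 in group 5 was at 0.84 in the males, and Hoxc6, not tested, at 1.28 from 3 counts against 1. Across the 15 tested genes Spearman's rho between ratio and paralogue number was -0.53 in the females and -0.36 in the males, a description over genes that share their libraries. Whether the genotype effect differed by sex was fitted as the product of both codes, which with 4 libraries required leaving sex out as a term. By edgeR it called 0 of the 15 Hox genes, against 3 of 15117 genes or 0.0198%. At an unadjusted p under 0.05 stood 2 Hox genes, against 3.55% of all genes. They were Hoxb3, with an edgeR p of 0.0082, and Hoxd1, with an edgeR p of 0.0202, and the adjusted p of both was 0.998. Hoxd1 passed the filter on low counts only through the heterozygous male and the wild type female, the libraries that the product sets together, so its p is no support for a difference.

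**Figure D4:**
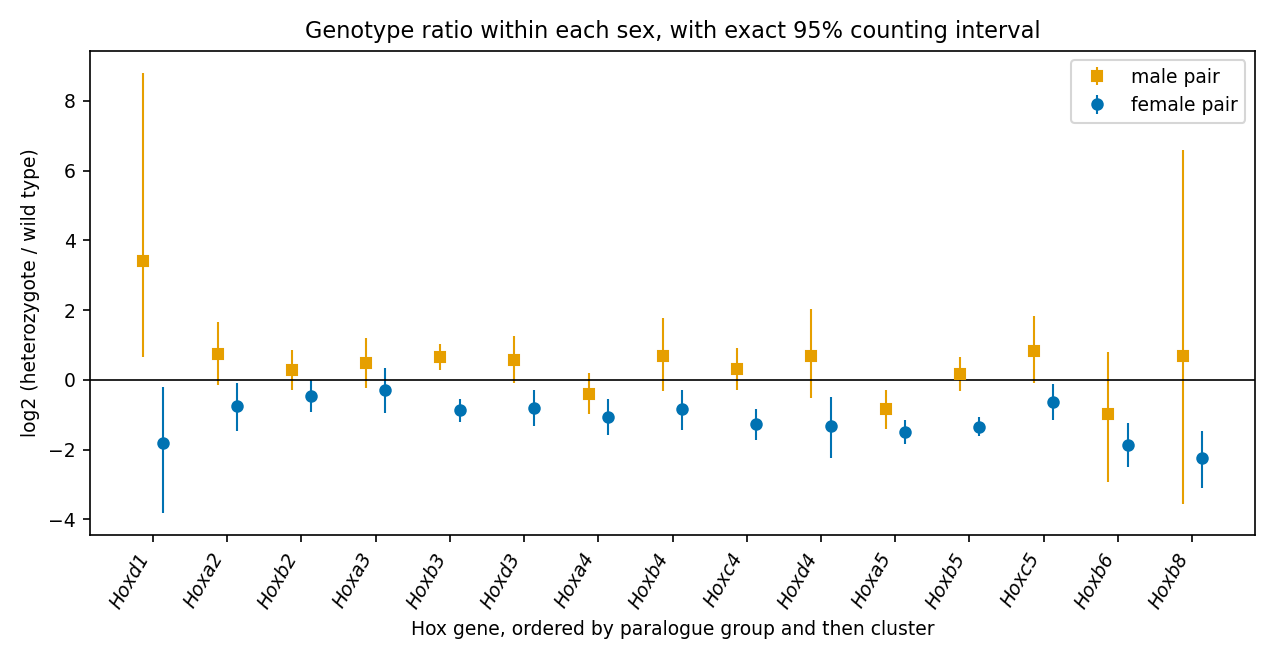
Log2 ratio of heterozygote to wild type for each tested Hox gene, in the male pair and in the female pair, with exact 95% intervals that cover counting error only. All 15 female ratios lie under 0, and most male ratios lie above it, with Hoxa5 as the male gene whose interval is below 0.

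Sex was the larger difference. In the same edgeR fit all 15 tested Hox genes were lower in the males, against 47.1% of all tested genes, with a median log2 difference of -1.12 against 0.01. Hoxb6 differed by -3.29 ± 0.46 (SE, adjusted p = 0.0326), at 0.366 ± 0.170 CPM in males and 3.90 ± 3.12 CPM in females (SD, n = 2). Hoxb8 differed by -4.82 ± 0.71 (adjusted p = 0.0387), at 0.0797 ± 0.0267 CPM in males and 2.85 ± 2.62 CPM in females. These 2 were the Hox genes called, against 9 of 15117 genes or 0.0595%. Both passed the filter on low counts only through the females, so that they had to differ, and each also lay higher in the wild type than in the heterozygote female. Hoxa5 differed by -1.64 ± 0.26 (adjusted p = 0.0775). Unadjusted p-values under 0.05 were found for 7 of the 15, against 3.82%, and both males lay below both females for 11 of the 15, against 13.1%.

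The calls for sex depended on the fit and the libraries. DESeq2 gave Hoxb6 an adjusted p of 0.203 and Hoxb8 one of 0.211, and called Hoxb5 instead, at 0.0286. With 1 library of each sex and genotype, a sex difference cannot be told apart from a difference between these particular dissections. With sex as the only term, leaving out the heterozygous male, the wild type male or the wild type female gave 0 called Hox genes, and leaving out the heterozygous female gave 12. The median was -0.47 without the wild type female.

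Genes outside the clusters that carry regional identity were set beside these levels. Of the brainstem neuron genes, Tph2, the serotonin-synthesising enzyme of raphe neurons, was at 52.1 CPM in the heterozygous male, 52.2 in the wild type male, 49.5 in the heterozygous female and 5.63 in the wild type female. Dbh, of noradrenaline neurons, was at 21.7, 13.6, 16.7 and 4.51 CPM, and Slc6a5, the glycine transporter of inhibitory neurons, at 27.2, 11.5, 17.4 and 5.68 CPM. All 3 were lowest in the wild type female, where Hox genes were highest. Chat, of cholinergic neurons, was at 6.46, 4.56, 6.90 and 3.15 CPM. Of the 18 brainstem genes 17 were higher in heterozygotes, and edgeR called 2, Slc6a5 at a log2 difference of 1.42 ± 0.18 and Th, the dopamine and noradrenaline synthesis enzyme, at 1.15 ± 0.15 (adjusted p = 0.0473 for both). Over all tested genes 7723 of 15117 were higher in heterozygotes and 0.0198% were called. With the filter of 1 CPM in 2 libraries, or without the sex term, 0 genes were called. In all, 12 of the 18 were lowest in the wild type female and 2 were highest there.

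Factors of the isthmus and cerebellar territory act in the embryo in front of the Hox domain. En1 was at 10.9 CPM in the heterozygous male, 9.97 in the wild type male, 10.5 in the heterozygous female and 4.996 in the wild type female. En2, which adult granule cells express, was at 85.4, 102, 97.6 and 120 CPM, and Pax2, of cerebellar interneuron precursors, at 11.6, 10.6, 13.4 and 16.5 CPM. The wild type female was lowest for En1 and highest for En2 and Pax2. Of 9 tested genes of that list none was called for genotype. Otx1 and Emx2, factors of forebrain and midbrain picked here after their values were seen, had 21 and 23 counts in the heterozygous male and no count in the wild type female. They had 21 and 28 counts in the wild type male and 30 and 24 in the heterozygous female. Six3, a forebrain factor picked in the same way, had 151, 116, 110 and 3 counts. The wild type female therefore combined the most Hox counts with the fewest counts of these 3 rostral genes, while Otx2, which granule cells of the posterior cerebellum and choroid plexus also express, was at 15.2 CPM there against 15.2 to 19.6 CPM in the others.

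**Figure D5:**
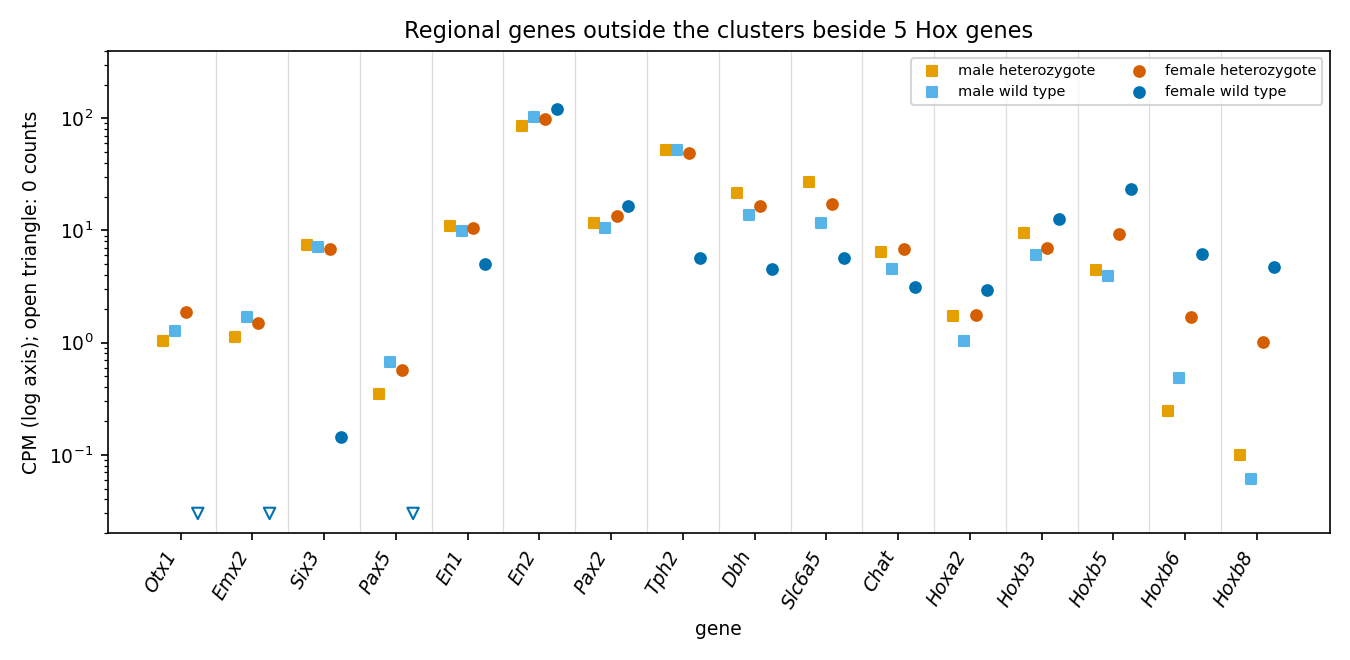
Level of regional genes outside the Hox clusters beside 5 Hox genes, as CPM on a log axis with 1 point per library. The wild type female is the lowest point for Tph2, at 5.63 CPM against 49.5 to 52.2, and the highest point for each Hox gene.

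Hox proteins bind DNA with PBX and MEIS partners, whose genes were counted in all 4 libraries. Of the 9 cofactor genes 9 were tested and none was called for genotype or sex, and 7 were higher and 2 lower in heterozygotes. Meis2 was at 88.9 CPM in the heterozygous male, 71.1 in the wild type male, 81.1 in the heterozygous female and 43.7 in the wild type female, with both heterozygotes above both wild types (log2 difference 0.61 ± 0.14, edgeR adjusted p = 0.189). Meis1 was at 41.9, 41.4, 40.6 and 56.4 CPM, and Meis3 at 58.9, 51.4, 57.8 and 55.1 CPM. Meis1 was highest and Meis2 lowest in the wild type female. Pbx3 was at 48.7, 48.8, 50.5 and 37.3 CPM, Pbx2 between 58.5 and 68.3 CPM, and Pbx4 between 6.62 and 8.40 CPM.

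Regulators and neighbours of the clusters were tested alongside. Of 28 genes for Polycomb, Trithorax, retinoic acid receptor and related regulators in the table, 24 were tested and none was called for genotype, with 9 higher and 15 lower. Of 13 non-coding genes of the clusters in the table, 10 had no count in any library. Haglr, a non-coding transcript antisense to Hoxd1, listed as 6720416L17Rik, was the 1 tested: it had 33 counts in the heterozygous male, 30 in the wild type male, 28 in the heterozygous female and 57 in the wild type female. It was highest where the Hox genes were. Of 15 tested genes flanking the clusters none was called. Endothelial and mural cell genes shared the top library with the Hox genes but not the order below it. Of 15, 15 were highest in the wild type female, at a summed 399 CPM, and none was at 0 in all libraries. The heterozygous female was lowest at 208 CPM, and the males were at 240 CPM in the heterozygote and 266 CPM in the wild type. Granule cell genes were highest there for 8 of 10 and Purkinje cell genes for 7 of 8. The part of these cell types in the Hox levels was not tested.

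Overlapping annotation limits some of these counts. In GENCODE M21 on GRCm38, 3 of the tested genes, Hoxc5, Hoxd3 and Hoxd4, share 5.37%, 9.26% and 13.2% of their exonic bases with another Hox gene. For Hoxb3, 52.9% of exonic bases lie opposite an exon of another gene, for Hoxb2 27.3% and for Hoxa3 25.4%. The libraries kept the strand, but the labels do not say whether the counting used it. Hoxa5, Hoxb6 and Hoxb8 have no such overlap.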

How the data were processed

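Genotype and sex of the 4 libraries were taken from the labels. Per the labels' protocols, libraries were made with a stranded mRNA kit and read from a single end for 100 bases, all in 1 lane. The deposited values are raw read counts, 1 row for each gene symbol. The submitters' processing notes name STAR, featureCounts, FastQC, edgeR and the build mm9 but no settings. Hox members, gene lists and tests were chosen with earlier results of these data known.

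CPM is the count divided by the library total. The low-count filter was edgeR's filterByExpr with genotype as the group, and library sizes scaled by TMM (factors 0.999 to 1.00). Genotype and sex were both terms of a robust quasi-likelihood fit (edgeR 4.0.16, R 4.3.3), which left 1 residual degree of freedom. P-values were two-sided and adjusted over 15117 genes. Intervals on counts are exact Poisson, on shares Clopper-Pearson, and on ratios of 2 libraries conditional binomial, all at 95% and for counting error only. The rule for named genes was every Hox gene with 10 or more counts in a library. Of the other lists, those named are the brainstem, isthmus and cofactor genes set with the tests and the targeted gene, with the non-coding gene over 10 counts. The Cdx genes, the globin genes, Alas2, Prl, Gh, Otx1, Otx2, Emx2, Six3 and Th were named after their values were seen. The rest are given by counts. Values of some single genes are not reported here. Upstream sequence matched 22 Hox genes by symbol. Alternatives were DESeq2 1.42.0, its size factors, library totals, no filter, a filter of 1 CPM in 2 libraries, no sex or genotype term, other detection limits, leaving out Hoxb5, and leaving out each library in turn. For the sex effect, the last was added after seeing the data. The fit was tested on simulated data.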

Additional observations from a re-analysis of the deposited data

Results flagged for a closer look

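Hoxb3 and Hoxd1 had genotype ratios of opposite sign in the sexes, each with a counting interval clear of 0. Hoxb3 stood at a log2 ratio of heterozygote to wild type of 0.65 in the male pair and -0.86 in the female pair. Hoxd1 stood at 3.40 in the male pair and -1.80 in the female pair, from 13 counts against 1 and 4 against 18. It passed the filter on low counts only through its high libraries. With 1 library per sex and genotype the difference between the pairs has no replicate check, and the product of genotype and sex in edgeR gave both an adjusted p of 0.998.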

How the results depend on the processing

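The genotype count of 3 called genes became 0 with the filter of 1 CPM in 2 libraries, 34 with DESeq2, 7 with its size factors, 13 with library totals, 553 without a filter and 0 without the sex term. It ran from 0 to 2730 over the fits leaving out 1 library, which keep genotype alone as a term and assume that a lone library varies like the others. The count of Hox genes called for genotype, 0, became 3 without a filter and ran from 0 to 12 over the left-out libraries, with 12 of all Hox genes then tested called without the wild type male. The sex count of 9 genes became 48 without a filter and 5 without the genotype term, and ran from 4 to 609. The 2 Hox genes called for sex became 0 with the 1 CPM filter, 1 with DESeq2, 6 without a filter and 0 without the genotype term, and ran from 0 to 12.

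Genotype differences that turned sign were Hoxc5, at 0.053 by DESeq2, and Hoxd1, at -0.10 without the sex term. Leaving out 1 library gave log2 ranges of -0.76 to 0.75 for Hoxa2, -0.21 to 0.40 for Hoxa3, -0.57 to 0.40 for Hoxb2, -0.62 to 0.46 for Hoxb3, -1.24 to 1.18 for Hoxb4, -1.80 to 0.78 for Hoxb5, -3.74 to 0.91 for Hoxb6 and -4.55 to 2.94 for Hoxb8. It gave -1.43 to 0.47 for Hoxc4, -1.04 to 1.34 for Hoxc5, -0.95 to 2.79 for Hoxd1, -0.86 to 0.63 for Hoxd3 and -1.41 to 0.77 for Hoxd4. Hoxa4 and Hoxa5 kept their sign in these fits, at -1.19 to -0.25 and -2.13 to -0.08. For sex, Hoxb3 ran from -0.73 to 0.14 and Hoxd1 from -3.11 to 0.55. The summed Hox log2 ratio of -0.69 ran from -1.33 to 0.51 and was 0.51 without the wild type female. The cause of these changes was not tested, beyond the smaller number of libraries.

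Without Hoxb5, groups 1 to 3 held 62.6%, 51.3%, 45.0% and 35.0% of Hox counts in the heterozygous male, wild type male, heterozygous female and wild type female. Groups 4 and 5 held 35.3%, 44.6%, 45.6% and 49.0%, and groups 6 to 8 held 15.6% in the wild type female. The caudal limit at 3 counts was group 6 in the heterozygous male and 13 in the other 3 libraries, and at 30 counts it was group 5 in the heterozygous female. Depth limits the posterior groups, where no gene had more than 6 counts, and Hoxd1, whose 1 count in the wild type male sets its male ratio. No paired analysis by replicate number was made, since the labels carry none, and sex, which pairs 1 heterozygote with 1 wild type, is already a term of the fit. Of all values recomputed under an alternative, 273 kept their direction and side of the threshold or moved by less than their error, 37 moved further, 22 turned sign, 29 newly passed the threshold and 12 no longer passed it.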
